A study of Mus musculus with 14 samples.

Results

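Malat1 and Neat1, which lie side by side on mouse chromosome 19 and give rise to long nuclear RNAs, were examined together with 6 genes of the imprinted Dlk1-Meg3 and Igf2-H19 loci. The 8 genes were chosen by symbol from the 23284 genes of the count tables, with results of the genotype comparison already known, among them a higher Malat1 level in one genotype. Their levels by genotype are therefore given as a description and carry no p-value. Of the 8, 7 passed the filter on low counts, which left 14804 genes, and Mirg did not.

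The libraries were 14 primary tumours from a genetically engineered mouse model of small cell lung cancer, a neuroendocrine lung cancer in which RB1 and p53 are commonly lost. In 7 of them the genotype was Rb1/Trp53 (RP), and in the other 7 it was Rb1/Trp53/Crebbp (RPC), so that all 14 shared the loss of Rb1 and Trp53. Crebbp encodes CBP, a histone acetyltransferase that is recruited as a coactivator by CREB and other transcription factors. The series was designed to find genes whose expression depends on Crebbp. The Cre driver, the ages and sexes of the animals, and whether each tumour came from its own mouse were not stated in the sources used here, so the p-values below measure the spread between these samples.

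Malat1 is among the most abundant nuclear RNAs of mammalian cells and gathers in nuclear speckles, where splicing factors are stored. Neat1 is the scaffold of paraspeckles, nuclear bodies built on its long isoform together with RNA-binding proteins such as NONO and SFPQ. At an imprinted locus the 2 parental chromosomes are read differently. In mouse the paternal chromosome 12 expresses Dlk1, a transmembrane protein of the Notch ligand family found on neuroendocrine and progenitor cells, while the maternal one expresses the noncoding RNAs Meg3, Rian and Mirg, which host snoRNAs and many microRNAs. On distal chromosome 7, Igf2, a growth factor that signals through the IGF1 receptor, is expressed from the paternal copy and the noncoding RNA H19 from the maternal copy.

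RefSeq (GRCm38.p6) gave promoter windows, from 250 bases upstream to 50 bases downstream of a start site, for 6 of the 8 genes. Because CBP acts with CREB, the windows were searched on both strands for the cAMP response element TGACGTCA and for its core TGACG, which also matches inside each full element. The windows of Malat1 and of the upstream Meg3 start site are shown because Malat1 is the gene of the set with the clearest difference between genotypes and Meg3 is the one with a full element. Capitals mark the matches.
Malat1, chr19:5802623-5802922, minus strand: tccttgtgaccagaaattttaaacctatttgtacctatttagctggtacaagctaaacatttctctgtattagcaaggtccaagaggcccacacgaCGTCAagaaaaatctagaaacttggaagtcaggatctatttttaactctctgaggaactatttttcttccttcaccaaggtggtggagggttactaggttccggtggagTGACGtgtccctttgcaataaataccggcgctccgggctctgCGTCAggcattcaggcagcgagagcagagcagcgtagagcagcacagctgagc
Meg3, chr12:109540746-109541045, plus strand: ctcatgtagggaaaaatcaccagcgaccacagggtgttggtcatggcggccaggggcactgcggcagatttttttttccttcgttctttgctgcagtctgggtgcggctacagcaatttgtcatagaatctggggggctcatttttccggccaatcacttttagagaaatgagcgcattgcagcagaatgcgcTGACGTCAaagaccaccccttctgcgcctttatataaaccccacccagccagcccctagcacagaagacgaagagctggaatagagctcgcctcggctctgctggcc
The Malat1 window held 3 core sites, which began at positions -154, -45 and -3 from the start site, and no full element. The Meg3 window held 1 full element, at position -57. Across the 32851 promoter windows of the table, 1.79% held a full element and 20.8% a core site. Dlk1 had 1 core site, at -106. Among the 4 Igf2 start sites there were core sites at -189 and 7, and the windows of Rian, Mirg and the downstream Meg3 start site held none. These matches describe the letters of the windows only.

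The imprinted loci also carry microRNA genes: RefSeq placed 2 inside Meg3, 3 inside Rian, 10 inside Mirg, 1 inside Igf2 and 1 inside H19. The products of H19 and of Igf2 are shown, with the seed (bases 2 to 8) in capitals, as the small RNAs made from host transcripts that were counted here.
mmu-miR-675-5p, from H19: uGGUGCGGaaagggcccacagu
mmu-miR-675-3p, from H19: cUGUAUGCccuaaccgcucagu
mmu-miR-483-5p, from Igf2: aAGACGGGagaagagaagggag
mmu-miR-483-3p, from Igf2: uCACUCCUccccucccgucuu
Their seeds all differ. The mature microRNAs were not measured, because the libraries were made from polyadenylated RNA. In the count tables, the rows of these microRNA genes held 1 read inside Mirg and 1 inside Igf2 over the 14 libraries.

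Levels are given as CPM, read counts scaled to library size, with library sizes adjusted by the TMM method of edgeR. The reads counted in genes ranged from 10965714 to 23678648 per RP library and from 10060969 to 24052799 per RPC library. The deletion itself was not visible as an absence of Crebbp reads, since the gene stood at 59.4 to 97.2 CPM in RP and at 57.9 to 70.0 CPM in RPC. Neuroendocrine markers were present in every library, with all 8 of them above 0 in RPC tumours 3, 5 and 6. Their summed level was nevertheless lower in every RPC tumour, at 2612 to 5158 CPM, than in any RP tumour, at 5172 to 10430 CPM, and the part of this difference in the levels below was not tested. RPC tumours 3, 5 and 6 stood apart in markers of other cell types. Their summed macrophage and monocyte markers were 4.30, 6.57 and 3.13 CPM against 371 to 1925 CPM in the other 4 RPC tumours and 489 to 1373 CPM in RP. Their summed fibroblast markers were 4.19, 126 and 5.54 CPM against 289 to 654 CPM in the other RPC tumours and 234 to 867 CPM in RP. The endothelial markers Cdh5, Emcn and Cldn5, the macrophage marker Emr1, the T and NK cell markers Cd3e, Nkg7 and Ncr1 and the B cell marker Ms4a1 were at 0 in all 3. Other markers were still read there: 3 of 7 endothelial markers were at 0 in each, and 1, 0 and 0 of 5 mural markers. The summed endothelial markers were 119, 86.5 and 10.6 CPM, against 351 to 1433 CPM in the other RPC tumours and 585 to 2389 CPM in RP. In bulk tumour RNA, fewer cells of a type and less RNA per cell cannot be told apart. Results are given with and without these 3 libraries, an alternative chosen after the data were seen. In edgeR's quasi-likelihood test with Benjamini-Hochberg adjustment, 327 of 14804 genes passed 0.05, 161 higher and 166 lower in RPC, and 11 of 15358 (0.0716%) passed without those libraries.

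Malat1 was higher in every RPC tumour than in any RP tumour. Its levels in RP tumours 1 to 7 were 276, 280, 234, 227, 267, 241 and 275 CPM. In RPC tumours 1 to 7 they were 360, 485, 605, 589, 721, 439 and 662 CPM. The RP libraries thus lay within a narrow band, and the lowest RPC library, tumour 1, was above the highest RP library, tumour 2. The means were 257.4 ± 22.4 CPM in RP and 551.7 ± 128 CPM in RPC (SD, n = 7 each), a log2 fold change of 1.10 (SE 0.15). Without RPC tumours 3, 5 and 6 the log2 fold change was 1.03 (SE 0.17), and leaving out any 1 library kept it between 1.03 and 1.18. Of the 7 tested genes of the set, Malat1 was the 1 that passed the edgeR threshold, where 2.21% of all tested genes did (1.09% upward), and the 1 whose genotypes did not overlap with RPC higher, as for 0.513% of tested genes. Malat1 did not pass without RPC tumours 3, 5 and 6, where 0.0716% of all tested genes did. Because the genes were picked with this comparison in view, nothing is read from those counts. Malat1 lacks a conventional poly(A) tail and ends in a genome-encoded A-rich stretch, so that its level in a library selected with oligo-dT need not track its total amount.

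Neat1, the neighbour of Malat1, overlapped between the genotypes. Its levels in RP tumours 1 to 7 were 131, 475, 127, 619, 411, 336 and 524 CPM. In RPC tumours 1 to 7 they were 544, 951, 201, 624, 98.0, 87.4 and 768 CPM. RPC thus split into tumours 2, 4 and 7 above every RP tumour and tumours 5 and 6 below every RP tumour, and the means were 374.7 ± 189 CPM in RP and 467.7 ± 343 CPM in RPC (SD, n = 7 each). The log2 fold change was 0.32 (SE 0.54). Without RPC tumours 3, 5 and 6, the remaining 4 had a mean of 721.9 ± 178 CPM and the log2 fold change was 0.95 (SE 0.40), and without RPC tumour 2 alone it was 0.05. The 3 libraries with the lowest Neat1 in RPC were those with macrophage markers under 7 CPM, whereas RP tumours 1 and 3 had Neat1 levels of 131 and 127 CPM beside macrophage markers of 697 and 489 CPM. The part of these markers in the Neat1 levels was not tested.

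**Figure D1:**
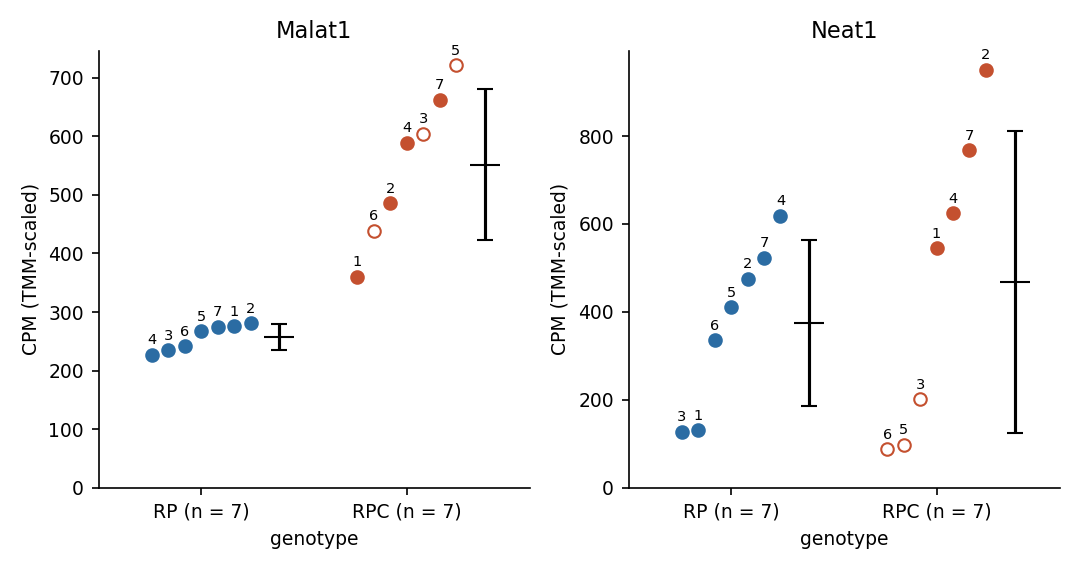
Malat1 and Neat1 in TMM-scaled CPM (vertical axes) in the 7 RP and 7 RPC tumours, each point a library numbered as in the labels and open points RPC tumours 3, 5 and 6, with bars at the mean ± SD. All RPC points for Malat1 lie above all RP points, between 360 and 721 CPM, while RPC spans 87.4 to 951 CPM for Neat1 and overlaps RP.

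Per kilobase of the longest GENCODE transcript, the mean Malat1 level in RP was 36.9 ± 3.20 CPM per kb and that of Neat1 18.0 ± 9.12 CPM per kb (SD, n = 7). In RPC the same levels were 79.0 ± 18.4 and 22.5 ± 16.5 CPM per kb. The longest Neat1 transcript spans 20.771 kb, and the isoform to which the reads were assigned was not stated in the sources used here. The Neat1 value per kilobase, and its order beside Malat1, depend on that choice. Which Neat1 isoforms the oligo-dT selection captured was not tested, so the Neat1 level need not track the long isoform. The ratio of Malat1 to Neat1 reads ran from 0.37 to 2.11 in RP and from 0.51 to 7.36 in RPC, the highest ratios being in tumours that stood apart. In the 4 other RPC tumours it ran from 0.51 to 0.94, within the RP range. Across the 7 RP libraries the log2 levels of Malat1 and Neat1 had a Pearson correlation of 0.04 (exact permutation p = 0.903, adjusted p = 0.985 over 28 pairs of the 8 genes) and a Spearman correlation of -0.04 (exact permutation p = 0.963).

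The rest of chromosome 19 was also higher in RPC. This shift was known from earlier results of these data and is given as a description, without a test. A chromosome score was computed for each library as the median, over 379 genes of chromosome 19 with Malat1 and Neat1 left out, of each gene's log2 CPM after its median across the 14 libraries was subtracted. The score was -0.28 ± 0.13 in RP and 0.26 ± 0.18 in RPC (SD, n = 7 each), a difference of 0.54. RPC tumour 1, at -0.11, was the 1 RPC library below an RP library, tumour 7 at -0.03, and it was also the RPC tumour with the lowest Malat1. Without RPC tumours 3, 5 and 6 the difference was 0.45. The score of chromosome 12, which holds Dlk1 and Meg3, differed by 0.05 (exact two-sided permutation p = 0.364, adjusted p = 0.546 over 3 chromosomes), and that of chromosome 7, which holds Igf2 and H19, by -0.02 (exact permutation p = 0.665, adjusted p = 0.665). Malat1's log2 fold change of 1.10 stood beside a median of 0.46 over the other 499 tested genes of chromosome 19, of which 42 had a higher one.

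**Figure D2:**
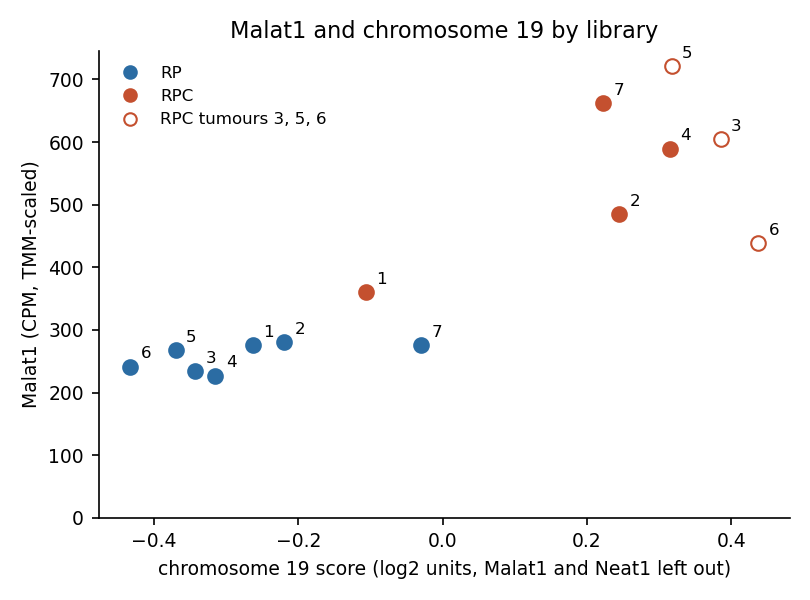
Malat1 in TMM-scaled CPM (vertical axis) against the chromosome 19 score in log2 units (horizontal axis), each point a library numbered as in the labels, with RPC tumours 3, 5 and 6 open. RPC tumour 1 lies nearest to the RP libraries on both axes, at 360 CPM and a score of -0.11, and RPC tumour 5 has the highest Malat1 level.

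Some of the genes lying near Malat1 and Neat1 rose in RPC. The list of these genes was chosen with the shift of chromosome 19 already known. Their counts and p-values therefore describe that shift near Malat1 and are not a separate test of it. Of 28 tested genes of a list of the neighbourhood, 7 rose and 0 fell in RPC in edgeR's quasi-likelihood test, or 25%. That share stood beside 2.21% of all genes and 16.8% of the 499 tested genes of chromosome 19 outside the set (84 higher, 0 lower). Those 499 genes include the 28. The median log2 fold change was 0.59, beside 0.46 for those 499 genes and 0.00 for all genes. The gene with the smallest adjusted p was Pola2, the accessory subunit of DNA polymerase alpha, which rose from 42.2 ± 9.45 to 94.6 ± 22.1 CPM (log2 fold change 1.16, SE 0.18, edgeR adjusted p = 0.00899). It was higher in 7 of 7 RPC tumours than in any RP tumour, as for 0.513% of tested genes. The lowest RPC level was 64.8 CPM, in tumour 7, and the highest RP level 60.1 CPM, also in tumour 7. Pola2 passed the threshold in all 14 fits that left out 1 library, but not in the fit with a replicate term. Fam89b rose by 1.10 on the log2 scale (edgeR adjusted p = 0.023), Dpf2, a BAF complex subunit, by 0.74 (edgeR adjusted p = 0.0195), and Mrpl49, a mitochondrial ribosomal protein, by 0.93 (edgeR adjusted p = 0.0273). Tigd3, Sssca1 and Pcnxl3 rose by 1.02, 1.01 and 0.60, with edgeR adjusted p between 0.0338 and 0.0434. The next 4 by p did not pass: Sac3d1, Rnaseh2c, Frmd8 and Fau had log2 fold changes of 0.85, 1.07, 0.70 and 0.87 (edgeR adjusted p = 0.0514 to 0.0684). Each of the 7 except Pola2 lost its call when single libraries were left out, among them RP tumour 6, without which 1 of the 7 remained called. None of the list was called without RPC tumours 3, 5 and 6, where the median was 0.49 and 16 genes had an unadjusted edgeR p under 0.05 upward and 1 downward, and DESeq2, which called 9.67% of all genes, called 17 on all libraries. Without RPC tumours 3, 5 and 6, 1824 of all 15358 tested genes had an unadjusted edgeR p under 0.05.

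Over the 20 tested genes on each side of Malat1 in RefSeq gene order, 39 once Neat1 is left aside, the median log2 fold change was 0.60, 32 were above 0 and 10 were called, all of them higher. These 10 include the 7 called genes of the list above and are not a second result. Of the 499 tested genes of chromosome 19 outside the set, which include these 39, 378 were above 0 and 16.8% were called. The same windows around Meg3 and Igf2 gave medians of 0.02 (38 genes, 0 called) and -0.12 (39 genes, 1 called, lower), where 2.21% of all tested genes were called.

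**Figure D3:**
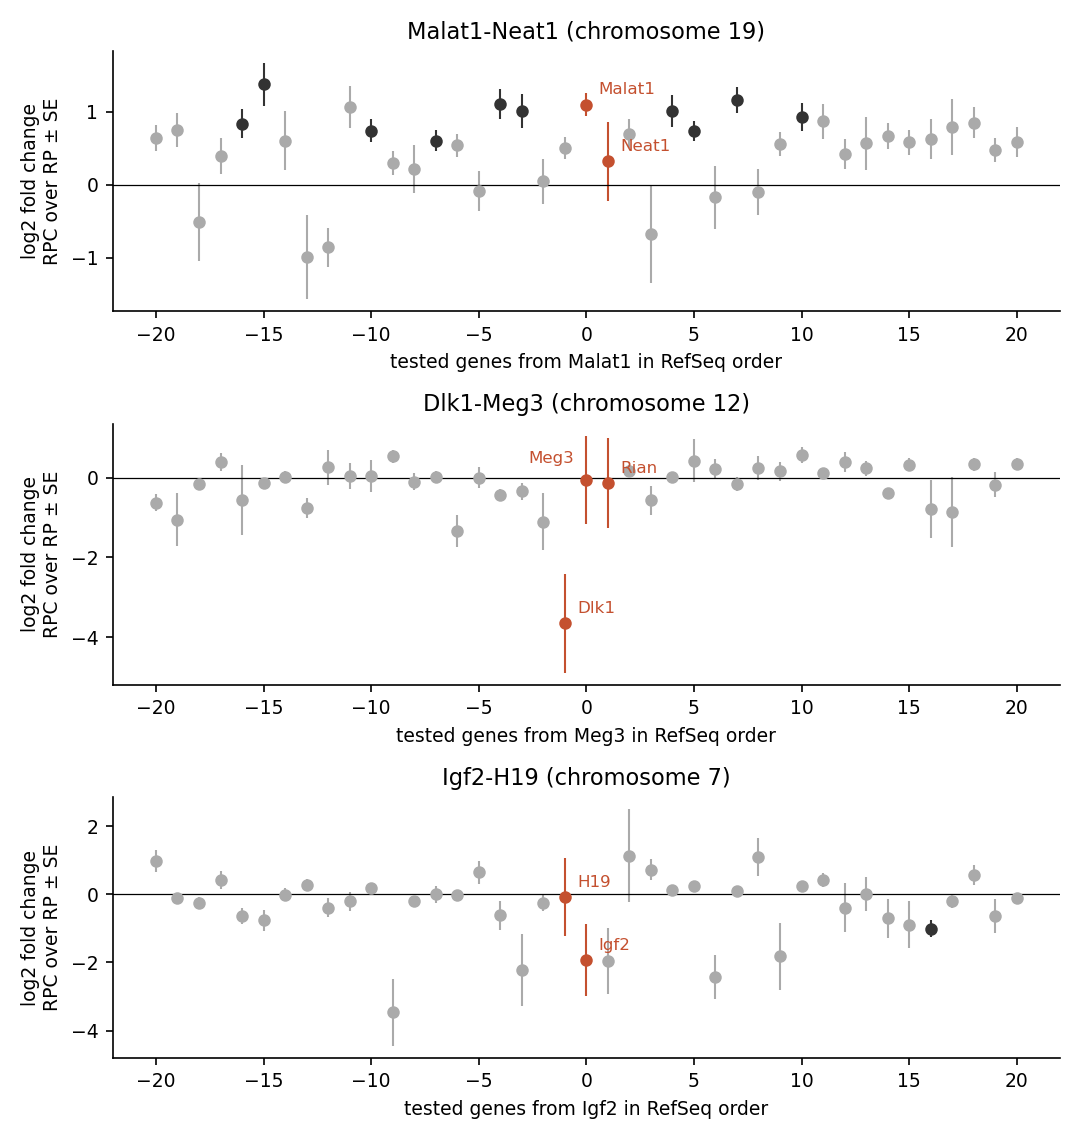
Log2 fold change of RPC over RP (vertical axes, bars are SE) for the 20 tested genes on each side of Malat1, Meg3 and Igf2 in RefSeq order (horizontal axes, number of tested genes from the centre). The genes of the set are red, called genes black and others grey; the upper panel holds 10 called neighbours, the middle panel none and the lower panel 1.

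A few genes of 2 further lists, other long noncoding RNAs and proteins of the nuclear bodies, were called higher in RPC. Both lists were chosen with earlier results of these data known, so their counts and p-values are given as a description. Of 67 listed noncoding RNA genes, 36 were in the count tables and 29 were tested, of which 2 rose and 0 fell by edgeR (6.9% beside 2.21% of all genes; median log2 fold change 0.28). Both were small nucleolar RNA hosts. Snhg1, on chromosome 19 like Malat1, rose from 16.1 ± 6.59 to 45.8 ± 13.1 CPM (log2 fold change 1.51, SE 0.26, edgeR adjusted p = 0.0163), exceeded all RP tumours in 6 of 7 RPC tumours and passed in all 14 fits that left out 1 library. Snhg4, on chromosome 18, rose from 10.9 ± 4.56 to 23.7 ± 5.73 CPM (log2 fold change 1.12, SE 0.25, edgeR adjusted p = 0.0383) but passed in 4 of those 14 fits. The hosts Snhg8, Gas5 and Snhg12 had log2 fold changes of 0.98, 1.14 and 0.80 and Gm15441 one of -1.52, none past the threshold (edgeR adjusted p = 0.0592 to 0.132). Without RPC tumours 3, 5 and 6, none of the list was called by edgeR, 7 had an unadjusted p under 0.05 upward and 2 downward, and the log2 fold changes of Snhg1 and Snhg4 were 1.48 and 1.14. In that fit 1824 of all 15358 tested genes had an unadjusted p under 0.05.

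Among 36 tested genes of paraspeckle and nuclear speckle proteins, 3 rose and 0 fell (8.33% beside 2.21% of all genes), and 33 had a log2 fold change above 0, with a median of 0.32. The 3 were Cpsf7, a subunit of cleavage factor Im, which rose by 0.79, Rbmx, an hnRNP, which rose by 0.83, and Matr3, which rose by 0.76 (edgeR adjusted p = 0.0248, 0.0418 and 0.0388). Matr3 lies next to Snhg4 in RefSeq order, and Cpsf7 is on chromosome 19. None of the 3 kept its call in all fits that left out 1 library: Cpsf7 passed in 9 of 14, Matr3 in 4 and Rbmx in 3. The paraspeckle protein gene Pspc1 went from 26.8 ± 6.71 to 52.8 ± 20.8 CPM without passing (log2 fold change 0.98, SE 0.27, edgeR adjusted p = 0.0681). Cpsf6, Pnn and Tardbp had log2 fold changes of 0.47, 0.45 and 0.47 and did not pass either (edgeR adjusted p = 0.103 to 0.129). Without RPC tumours 3, 5 and 6, none was called by edgeR, 6 had an unadjusted p under 0.05, all upward, and the median was 0.26. In that fit 1824 of all 15358 tested genes had an unadjusted p under 0.05.

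At the Dlk1-Meg3 locus the maternally expressed RNAs Meg3 and Rian varied over more than an order of magnitude within each genotype and overlapped between them. Meg3 had levels of 14.7, 14.7, 16.7, 2.80, 7.49, 1.78 and 0.794 CPM in RP tumours 1 to 7. In RPC tumours 1 to 7 it had 2.68, 44.4, 0.105, 5.31, 0.163, 0.179 and 3.62 CPM. RPC therefore held both the highest library, tumour 2, and the 3 lowest, tumours 3, 5 and 6. The means were 8.41 ± 6.85 and 8.07 ± 16.2 CPM (SD, n = 7 each), with a log2 fold change of -0.06 (SE 1.11). RPC tumour 2 set that value: without it the log2 fold change was -2.06, without RPC tumours 3, 5 and 6 it was 0.74, and under upper-quartile scaling it was 0.03.

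Rian, which hosts box C/D snoRNAs, followed Meg3. It ranged from 0.428 to 15 CPM in RP (median 5.38) and from 0 to 26.5 CPM in RPC (median 2.42), again with RPC tumour 2 highest. Its log2 fold change was -0.13 (SE 1.12), -1.91 without RPC tumour 2 and 0.66 without RPC tumours 3, 5 and 6. The ratio of Rian to Meg3 reads was 0.677 ± 0.192 over the 7 RP tumours and lay between 0.60 and 0.90 in the 4 RPC tumours with other-cell markers. Within RP the 2 RNAs rose and fell together, with a Pearson correlation of log2 levels of 0.97 (n = 7, exact permutation p = 0.0002, adjusted p = 0.0056 over 28 pairs) and a Spearman correlation of 1 (exact permutation p = 0.0004, adjusted p = 0.0111). With the 2 libraries farthest from the Meg3 median left out, Pearson's r was 0.93. It was the 1 pair of 28 with an adjusted p under 0.05.

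Mirg, the microRNA host at the far end of the cluster, had 111 reads in all libraries together and did not pass the filter. It stood at 0.244 to 2.24 CPM in RP (median 0.553) and at 0 to 0.795 CPM in RPC (median 0.132), with RPC tumour 2 highest in its genotype. The other 6 RPC tumours had 0 to 3 reads each and the lowest RP tumours 3 and 4, so that their order is not resolved at this depth. A fit without the filter gave a log2 fold change of -2.11 (SE 0.80), and the fit without RPC tumours 3, 5 and 6 gave -1.46 (SE 0.78).

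Dlk1, the paternally expressed gene of the locus, was highest in RP tumour 2 and low in most RPC tumours. Its levels in RP tumours 1 to 7 were 2.97, 28.9, 6.55, 12.9, 1.24, 0.274 and 0.244 CPM. In RPC tumours 1 to 7 they were 0.307, 1.24, 0, 0.169, 0, 2.41 and 0.0906 CPM. RPC tumours 3 and 5 had no Dlk1 read, which allows up to 0.314 and 0.163 CPM (3 counts, counting error only). The first of these limits is above the levels of RP tumours 6 and 7, so that the lowest libraries of the genotypes cannot be ordered. The means were 7.58 ± 10.4 and 0.602 ± 0.908 CPM, and the log2 fold change of -3.65 (SE 1.24) did not place Dlk1 among the genes called by edgeR. It was -2.78 without RP tumour 2, -4.63 without RPC tumour 6 and -4.06 without RPC tumours 3, 5 and 6. Within RP, the log2 levels of Dlk1 and Meg3 had a Pearson correlation of 0.62 (n = 7, exact permutation p = 0.135, adjusted p = 0.470) and a Spearman correlation of 0.61 (exact permutation p = 0.167, adjusted p = 0.467), and r was 0.30 with the 2 farthest libraries left out. RPC tumour 2, with the highest Meg3, had 1.24 CPM of Dlk1, the next to highest of its genotype, and RPC tumour 6, with 0.179 CPM of Meg3, had the highest Dlk1 of its genotype.

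**Figure D4:**
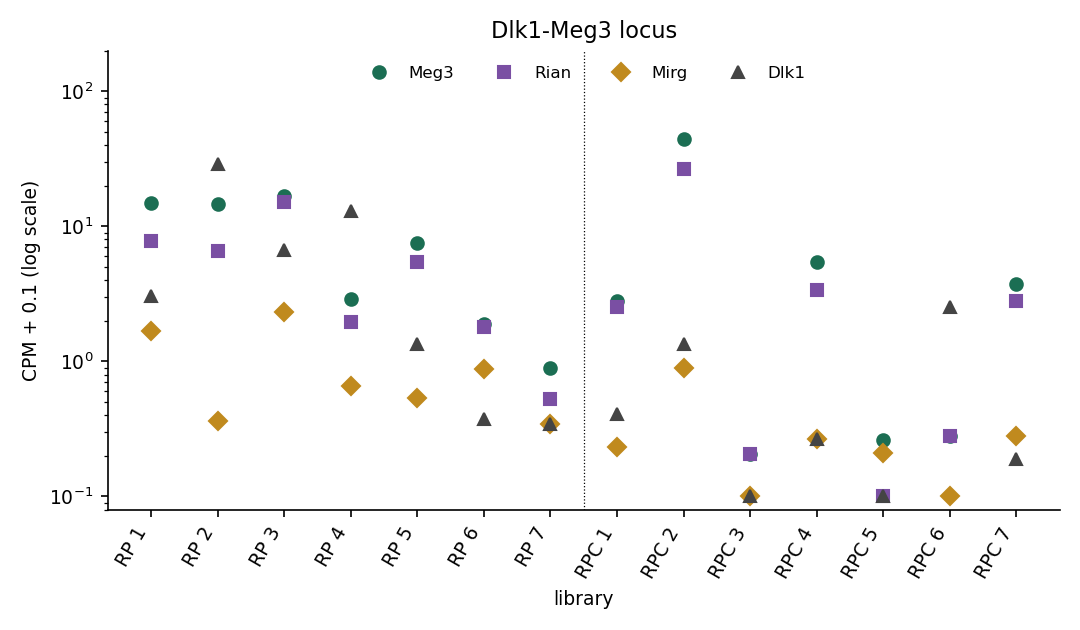
Levels of Meg3, Rian, Mirg and Dlk1 in CPM plus 0.1 on a log scale (vertical axis) in each library (horizontal axis), the dotted line dividing RP from RPC. Meg3 and Rian lie together in most libraries and peak in RPC tumour 2 at 44.4 and 26.5 CPM, whereas Dlk1 is highest in RP tumour 2 at 28.9 CPM.

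No gene around the locus was called. Of 17 tested neighbours, 0 passed edgeR's threshold, 2 had an unadjusted p under 0.05 upward and 3 downward, and the median log2 fold change was 0.01. Over all 14804 tested genes 2.21% passed, and 1519 had an unadjusted p under 0.05 upward and 1637 downward. A list of this size cannot tell 0 calls from that share. The 4 with the smallest p were Slc25a29, a mitochondrial carrier (log2 fold change -1.33), Wars, tryptophanyl-tRNA synthetase (-0.42), Evl, an actin regulator (0.53), and Traf3, a signalling adaptor (-0.39), with edgeR adjusted p from 0.0869 to 0.121. DESeq2, which called 9.67% of all genes, called 3 of the 17, 1 higher and 2 lower. The imprinted neighbours Rtl1 and Dio3 stayed at or below 1.85 and 0.395 CPM in all libraries.

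Igf2 was abundant in all RP tumours and lower in most RPC tumours. Its levels in RP tumours 1 to 7 were 348, 299, 267, 345, 458, 607 and 255 CPM. In RPC tumours 1 to 7 they were 111, 93.5, 0.21, 116, 6.30, 0 and 351 CPM. Tumours 1 to 6 were below every RP tumour and tumour 7 lay within the RP range. The level in RPC tumour 3 rested on 2 reads, and the 0 in RPC tumour 6 allows up to 0.268 CPM. The means were 368 ± 125 and 96.9 ± 124 CPM (SD, n = 7 each), and the log2 fold change of -1.93 (SE 1.05) was not among those called by edgeR. It was -1.13 (SE 0.38) without RPC tumours 3, 5 and 6 and -2.76 without RPC tumour 7. The 3 lowest Igf2 libraries were those with fibroblast markers of 4.19, 126 and 5.54 CPM. Among the other 4 RPC tumours, fibroblast markers lay between 289 and 654 CPM, and Igf2 was below every RP tumour in 3 and within the RP range in tumour 7. The part of these markers in the Igf2 levels was not tested. Per kilobase, Igf2 averaged 78.0 CPM per kb in RP, above the 36.9 of Malat1, and 20.5 in RPC, below the 79.0 of Malat1. These values rest on the longest GENCODE transcripts and on oligo-dT selection, so they do not rank the 2 RNAs by total amount.

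Igf2as, the antisense gene of the locus, gave 0.13 to 0.21 reads per Igf2 read in RP and 0.11 to 0.19 in the 4 RPC tumours with other-cell markers. The kit's protocol as given in the labels does not state that strand was kept, so reads of Igf2 and Igf2as cannot be told apart.

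H19 was low and uneven. It ranged from 0.228 to 25.6 CPM in RP (median 1.54), with RP tumour 3 highest, and from 0.0894 to 17.9 CPM in RPC (median 2.37), with RPC tumour 2 highest. RPC tumours 3, 5 and 6 had 0.21, 0.163 and 0.0894 CPM, on 2, 3 and 1 reads. The log2 fold change of -0.09 (SE 1.15) had no stable sign: it was 1.57 without RP tumour 3, -0.99 without RPC tumour 2, 0.69 without RPC tumours 3, 5 and 6 and 0.03 under upper-quartile scaling. Per kilobase, H19 averaged 2.20 CPM per kb in RP beside 78.0 for Igf2.

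**Figure D5:**
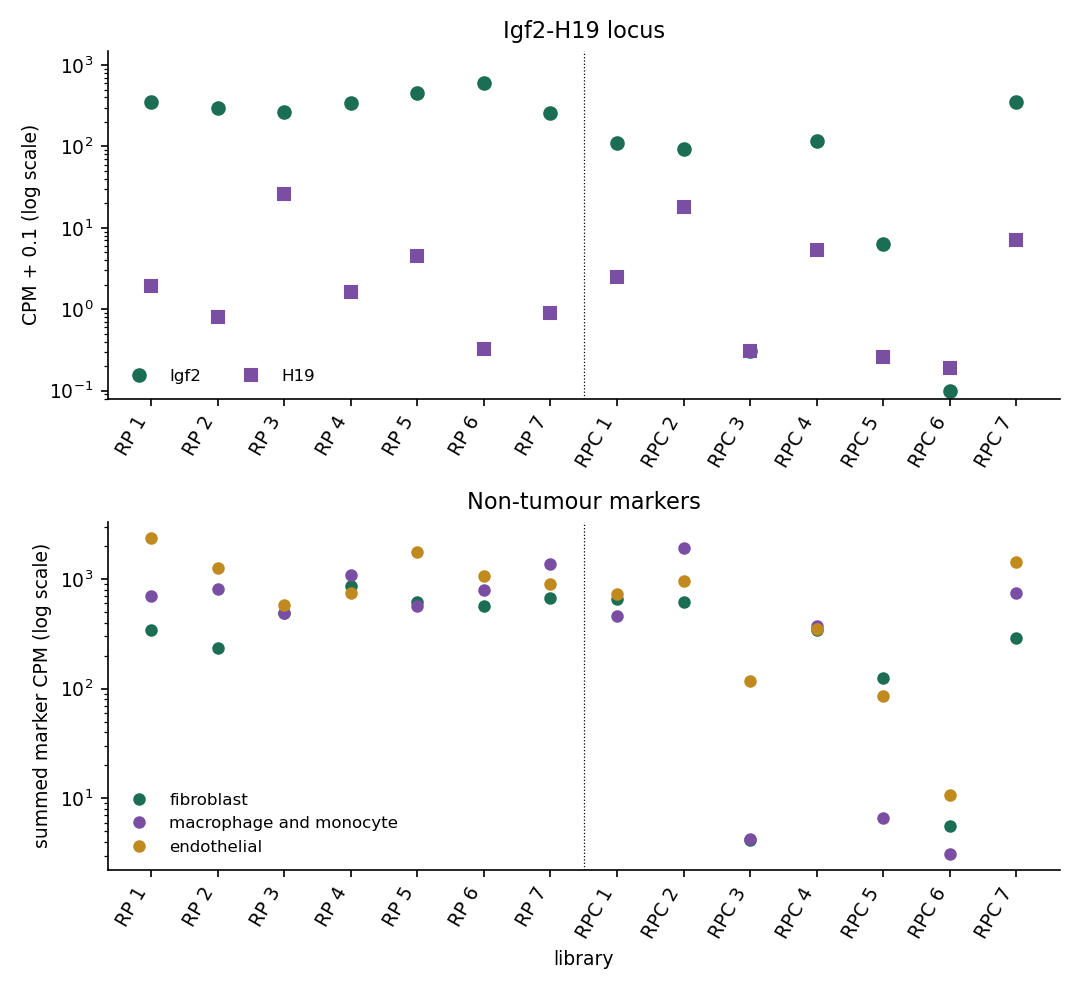
Upper panel, Igf2 and H19 in CPM plus 0.1, and lower panel, the summed CPM of fibroblast, macrophage and monocyte, and endothelial markers, both on log scales (vertical axes) by library (horizontal axes), the dotted line dividing RP from RPC. RPC tumours 3, 5 and 6 are lowest both in Igf2, at 0.21, 6.30 and 0 CPM, and in the macrophage markers, at 4.30, 6.57 and 3.13 CPM.

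Of 16 tested neighbours of Igf2 and H19, 0 passed edgeR's threshold and 1, Kcnq1, had an unadjusted p under 0.05. Over all 14804 tested genes 2.21% passed, and 3156 had an unadjusted p under 0.05. Kcnq1, an imprinted potassium channel gene, had 15.8 to 47.6 CPM in RP and 0.0543 to 15.6 CPM in RPC, with no overlap, as for 0.635% of tested genes in that direction (log2 fold change -2.44, SE 0.64, edgeR adjusted p = 0.0588; called by DESeq2). Its antisense noncoding RNA Kcnq1ot1, which silences the cluster in cis and was named here for that role, had 151.4 ± 27.6 CPM in RP and 162.3 ± 38.3 CPM in RPC (log2 fold change 0.10, edgeR adjusted p = 0.746). The 2 transcripts overlap on opposite strands, so their reads cannot be fully told apart. Lsp1, Igf2as and Cdkn1c, a cyclin-dependent kinase inhibitor, had log2 fold changes of -2.23, -1.96 and 1.10 (edgeR adjusted p = 0.243 to 0.268).

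The other imprinted genes of the genome were split in direction. Of 43 tested, 0 passed edgeR's threshold, 3 had an unadjusted p under 0.05 upward and 3 downward, and the median log2 fold change was -0.06 (21 above 0). Over all 14804 tested genes 2.21% passed, and 1519 had an unadjusted p under 0.05 upward and 1637 downward. A list of this size cannot tell 0 calls from that share. DESeq2, which called 9.67% of all genes, called 1 higher and 3 lower. Beside Kcnq1, the smallest p belonged to Blcap (log2 fold change -0.68), Trappc9 (-0.37) and the ubiquitin ligase gene Ube3a (0.49), with edgeR adjusted p from 0.0688 to 0.0991.

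Genes of IGF signalling were examined because Igf2 is its ligand. Of 17 tested receptors, ligands, binding proteins and substrates, 0 passed edgeR's threshold, 0 had an unadjusted p under 0.05 upward and 5 downward, and DESeq2 called 4, all lower. Over all 14804 tested genes edgeR called 2.21% and DESeq2 9.67%, and 1519 had an unadjusted edgeR p under 0.05 upward and 1637 downward. The median log2 fold change was -0.57, and it was 0.04 without RPC tumours 3, 5 and 6. Igfals, which stabilises circulating IGF complexes, had 18.1 ± 20.1 CPM in RP and 1.71 ± 1.56 CPM in RPC (log2 fold change -3.39, SE 0.92, edgeR adjusted p = 0.0647). The receptor substrates Irs2 and Irs4 had log2 fold changes of -0.80 and -3.76, and the mRNA-binding protein gene Igf2bp2 one of -1.96 (edgeR adjusted p = 0.107 to 0.164).

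For each of the 7 tested genes of the set, the genes with the most similar pattern were found by Pearson's r of log2 CPM over the 14 libraries after each genotype's mean was subtracted. These r values describe libraries that share depth and cell makeup, and carry no p. Malat1 was closest to Camk2n2 (r = 0.88), Prkacb (0.86), Fry, Ptpn9 and Slc24a2. The first 2 kept 0.88 and 0.83 over the 11 libraries without RPC tumours 3, 5 and 6. Fry, Ptpn9 and Slc24a2 had 0.76, 0.73 and 0.74 there. Neat1 was closest to Ctsa, a lysosomal carboxypeptidase, to the interferon-induced genes Ifi44 and Zbp1, and to Trim30d (r = 0.93 each) and Ecm1 (0.92), which had 0.76 to 0.84 over the 11 libraries. Meg3 and Rian shared Hal, Pkhd1l1, Pde11a and Clec1b among their 5 closest, led by Hal, which encodes histidine ammonia-lyase (r = 0.94 with both). Over the 11 libraries, Hal, Pkhd1l1, Pde11a and Clec1b had 0.89, 0.79, 0.85 and 0.68 with Meg3. With Rian they had 0.90, 0.81, 0.89 and 0.65. Hal and Clec1b were also among the 5 closest to H19 (0.87 and 0.83), beside Ednra, Myh11 and Rpia. Over the 11 libraries Hal and Clec1b had 0.68 and 0.57 with H19, and Ednra, Myh11 and Rpia 0.73, 0.65 and 0.80. Igf2 was closest to Igf2as (0.98, and 0.96 over the 11 libraries), while Fcgrt, Mmp14, Trf and AI607873, at 0.94 to 0.95, had -0.54 to 0.31 over the 11 libraries.

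Dlk1 was closest to Fstl4 (0.84), Elovl2, Tmem229a, Neurod1 and Kl, and the highest value over the 11 libraries was that of Neurod1, a neuroendocrine transcription factor (0.77, and 0.92 over the 11). Neurod1 stood at 10.3, 45.9, 21.3 and 19.3 CPM in RP tumours 1 to 4, where Dlk1 was at 2.97 to 28.9 CPM. In RP tumours 5 to 7, where Dlk1 was at 0.244 to 1.24 CPM, it stood at 0.291 CPM or less. Within RPC, tumour 6 had the highest level of both genes, 35.6 CPM of Neurod1 and 2.41 CPM of Dlk1, whereas RPC tumours 3 and 5 had 12.3 and 11.1 CPM of Neurod1 and no Dlk1 read.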

How the data were processed

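RNA of 14 primary mouse tumours, 7 RP and 7 RPC by the genotype in the labels, was selected with oligo-dT and made into libraries with an NEBNext Ultra kit, per the labels' protocols. The deposited files hold raw counts per gene by symbol, not normalized by the authors. The submitters' processing notes name HTSeq 0.6.1, TopHat2 2.0.12, bcl2fastq 1.8.2 and the mm9 build. Settings, annotation and strand were not stated in the sources used here. Rows that name no gene were left out of library sizes. Reads outside genes were 18.0% ± 2.22 of a file in RP and 17.0% ± 1.33 in RPC (SD, n = 7 each; exact two-sided permutation p = 0.327).

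Low counts were removed with filterByExpr at a minimum count of 10 and a minimum total of 15. TMM-scaled counts were tested for RPC against RP with the quasi-likelihood test of edgeR 4.0.16 in R 4.3.3, with Benjamini-Hochberg adjustment over all 14804 genes and a threshold of 0.05. On simulated counts of 14605 genes for this comparison, the test recovered 39% of 82 genes changed by 2-fold and 72.6% of 113 changed by 4-fold, with 1 false call among 115. DESeq2 1.42.0, other scalings, no filter, a replicate term and fits without single libraries were alternatives. No libraries of 1 genotype were duplicates: the lowest chi-square per degree of freedom over 42 pairs was 59.2. The SE of a log2 fold change was taken as its absolute value divided by the square root of the F statistic of edgeR's test, and is approximate. Correlations within RP used log2 of CPM plus 0.5. Chromosomes and gene order come from RefSeq (GRCm38.p6, 14708 tested genes matched), transcript lengths from GENCODE on the same assembly. The coordinates of the promoter windows are those of GRCm38.p6. No other gene coordinates are given, since the counts were made on mm9.

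The 8 genes and the 7 lists (other imprinted genes, other noncoding RNAs, nuclear body proteins, neighbours of each locus, IGF genes) were chosen with earlier results of these data known. Named are the 8 genes; from each list the called genes and up to 4 more with the smallest p and a mean of at least 1 CPM; and the 5 genes most similar to each tested gene. Kcnq1ot1, Rtl1, Dio3, Igf1r, Igf2r and the genes beside it were named outside that rule, the receptors after their values were seen. Some genes are not reported here.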

Additional observations from a re-analysis of the deposited data

Results flagged for a closer look

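In 32 groups of 7 libraries (8 genes of the set, Igf2as, Igf2r, Igf1r, Snhg1, 3 chromosome scores and the share of reads outside genes, each by genotype), 9 had a library far from the other 6 of its genotype, where chance gives about 1 in 20 groups of normally distributed values. CPM values are skewed, and of the 8 gene levels among the 9, 2 (Mirg in RPC and Igf2r in RPC) also stood apart on log2 of CPM plus 0.5. Igf2r and Igf1r were included after their values were seen. RPC tumour 2 was the high library for 4 RNAs: Meg3 at 44.4 CPM (next 5.31), Rian at 26.5 CPM (next 3.29), Mirg at 0.795 CPM (next 0.181) and H19 at 17.9 CPM (next 7.07). RPC tumour 7 was the high library for Igf2 at 351 CPM (next 116) and for the overlapping Igf2as at 65.9 CPM (next 13.4). RP tumour 3 had H19 at 25.6 CPM (next 4.43). RPC tumour 3 was the low library for Igf2r at 0.629 CPM (next 70.5). RPC tumour 1 had the lowest chromosome 19 score of RPC at -0.11 (next 0.22).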

How the results depend on the processing

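The number of genes called over the whole table was 327, and it was 1431 by DESeq2, 74 with a replicate block, 11 without RPC tumours 3, 5 and 6 (504 by DESeq2) and 51 to 898 when 1 library was left out. DESeq2 called 4 other imprinted genes, 5 noncoding RNAs, 8 nuclear body genes, 17 genes beside Malat1 and Neat1, 3 beside Dlk1 and Meg3, 1 beside Igf2 and H19 and 4 IGF genes. Without RPC tumours 3, 5 and 6 edgeR called 0 noncoding RNAs, 0 nuclear body genes and 0 genes beside Malat1 and Neat1. Without the filter 1 noncoding RNA was called. Leaving out 1 library at a time gave 0 to 3, 1 to 4, 0 to 5, 1 to 11, 0 to 2, 0 to 1 and 0 to 1 calls in the 7 lists in the same order. The chromosome 7 score, a difference of -0.02, was 0.005 without RP tumour 5 and 0.010 without RPC tumour 1 (range -0.025 to 0.010), and the cause was not tested. Across the same fits the chromosome 19 difference ranged from 0.51 to 0.59, that of chromosome 12 from 0.03 to 0.07 and that of the share of reads outside genes from -1.49 to -0.58 percentage points.

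Tumours of RP and RPC share numbers in the labels, but same-numbered tumours did not deviate together: the correlations of their deviations ran from -0.05 to 0.32, and a tumour correlated best with its own number for 2 of 7. The numbers were therefore not taken as pairs. With the replicate block 1 noncoding RNA (Snhg1), 0 nuclear body genes and 1 gene beside Malat1 and Neat1 (Mrpl49) were called by edgeR, Pola2 having an edgeR adjusted p = 0.0556, and log2 fold changes were -1.62 for Meg3, -3.53 for Igf2 and 0.24 for H19. At this depth, a gene with 0 reads could stand at up to 0.118 to 0.314 CPM.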

Other observations

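Receptors of IGF2 differed between single RPC tumours; both were singled out after their values were seen. Igf2r, the imprinted receptor that clears IGF2, had 91.7 to 210 CPM in the 7 RP tumours and 107, 98.2, 0.629, 88.9, 76.9, 109 and 70.5 CPM in RPC tumours 1 to 7. RPC tumour 3, at 0.629 CPM, also had 0.21 CPM of Igf2. Of genes near Igf2r on chromosome 17, Map3k4 stood in that tumour at 48.2 CPM (35.1 to 84.7 in RP) and Mrpl18 at 70.9 CPM (27.1 to 76.0 in RP). Airn, the noncoding RNA that overlaps Igf2r on the opposite strand, stood at 5.03 CPM (0.489 to 12.3 in RP). Strand was not stated, so reads of Igf2r and Airn cannot be fully told apart. The cause of the low Igf2r level was not tested. Igf1r, the receptor through which IGF2 signals, had 61.4 to 123 CPM in RP and 80.1, 71.8, 7.75, 35.3, 7.0, 34.2 and 47.8 CPM in RPC tumours 1 to 7, so that tumours 3 to 7 lay below every RP tumour (log2 fold change -1.11, SE 0.46, edgeR adjusted p = 0.179).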
